A study of Arabidopsis thaliana with 16 samples.

Results

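The comparison described here sets 4 arrays of auxin-treated Arabidopsis seedlings against 4 arrays of seedlings kept in water, so it uses 8 of the 16 arrays of the study. The arrays were taken by their labels: all IAA arrays and all water arrays of both genotypes, with the genotype as a factor in the model. Earlier results of these data were known when this comparison was chosen. Each of the 4 groups held 2 arrays, described in the design text as biological replicates. Wild-type seedlings of the ecotype Columbia, and seedlings of a line that overexpresses the rice glutaredoxin gene OsGRX8, were grown for 14 days on MS medium under 16 h of light and 8 h of dark. They were then placed for 3 h in water or in 100 µM IAA (indole-3-acetic acid), an auxin that plants make themselves. The remaining 8 arrays held the same lines after 3 h in 200 mM NaCl or 25 µM methyl viologen, a herbicide that causes oxidative stress, and enter here only where stated. Glutaredoxins are small enzymes that reduce disulfide bonds with the help of glutathione. Only 1 overexpression line is named in the labels, and neither its promoter nor its number of independent transformants is given in the sources used here. No level of the rice transgene was analysed here, so the line is taken at its label. Whole seedlings were extracted, and a lower signal from fewer cells of a type cannot be told apart from a lower signal from less RNA per cell.

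Auxin is perceived by F-box receptors of the TIR1 and AFB type, which bind the Aux/IAA repressors and mark them for breakdown. The auxin response factors are then released and switch on early genes, among them the Aux/IAA genes themselves, the GH3 genes whose enzymes join auxin to amino acids, the SAUR genes and several LBD transcription factor genes. In this way the hormone induces both its own repressors and enzymes that take it out of circulation, and in roots the LBD factors act in the founding of lateral roots.

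Signals are RMA values on the log2 scale, on which a difference of 1 is a doubling. The medians of the 8 arrays lay between 3.03 and 3.20, and probe sets for a bacterial transcript that was not added read 0.822 to 0.938, which shows where the bottom of the scale lay. Replicate arrays correlated at 0.966 to 0.994 across probe sets in the 4 groups, and the wild-type IAA pair spread most, with a replicate SD of 0.42 against 0.18 to 0.27 in the other 3 groups. The actin control transcript is measured at both ends. Its 3′ probe set exceeded its 5′ probe set by 1.36 to 1.85 on the water arrays, by 2.57 on wild-type IAA replicate 1 and by 1.23 on replicate 1 of the overexpression line. On the IAA replicate 2 arrays the excess was 6.10 for wild-type and 4.43 for overexpressor seedlings, whereas the 8 NaCl and methyl viologen arrays lay between 1.13 and 1.73. The GAPDH control behaved alike on those 2 arrays, with 1.40 and 0.924 against 0.132 to 0.372 in water. The tests of IAA against water over both lines, in each line and between the lines were therefore also run without both IAA replicate 2 arrays. The labelled tissue could be checked with few markers: the leaf gene RCA (rubisco activase) read 10.2 to 11.3 on the 8 arrays and the root gene PYK10 8.62 to 9.69. The other root gene measured, EXPA7, read only 1.45 to 2.20, close to the 1.04 to 1.89 of 3 pollen genes.

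**Figure D1:**
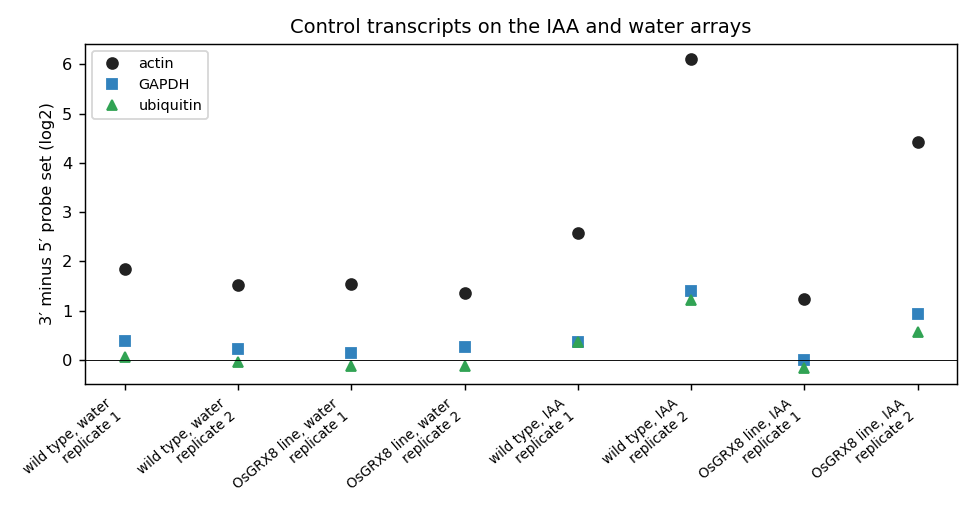
Excess of the 3′ over the 5′ probe set (log2, y axis) for 3 control transcripts on each of the 4 water and 4 IAA arrays (x axis); each point is 1 array. Both IAA replicate 2 arrays stand above the rest, at 6.10 and 4.43 for actin.

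Over both lines, 97 of 22746 probe sets passed the test (limma, Benjamini-Hochberg adjusted p under 0.05), which is 0.426% of those tested. Of these, 80 were higher after IAA (0.352%) and 17 were lower (0.0747%). In all 97 the 4 IAA arrays lay apart from the 4 water arrays. The direction was therefore necessarily the same in both lines, which is no separate result. Arrays apart are less selective than the test, since 6.2% of all probe sets had them, 3.6% with IAA above and 2.61% with IAA below. The change was at least 2-fold in 74 probe sets and at least 4-fold in 26. At an unadjusted p under 0.05 there were 2403 probe sets, and 95% confidence intervals reached a median of 0.327 log2 units to each side. Among the 97, 35 are annotated with exactly 1 gene, 28 of them higher and 7 lower. Another 2 are annotated with several genes, and 60 carry no gene name in the annotation used here. Of the 35 genes, 10 have a symbol and 25 have a locus code only, for which the tables used here give no function, except for AT1G59740.

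The GH3 genes held the largest named response. GH3.3 read 6.25 and 5.35 in wild-type water and 5.71 and 5.49 in overexpressor water, then 10.28 and 10.04 in wild-type IAA and 10.40 and 10.46 in overexpressor IAA. All 4 IAA arrays thus lay almost 4 log2 units above the highest water array, and replicate 2 gave the same level as replicate 1. The increase was 4.59 ± 0.20 (SE, n = 4 against 4), or 24.1-fold, with an adjusted p of 5.38e-05 in limma, and 4.64 ± 0.23 without the IAA replicate 2 arrays. WES1, which is GH3.5, an enzyme known to act on both auxin and salicylic acid, read 4.90 and 5.27 in wild-type water, 4.85 and 5.16 in overexpressor water, 7.39 and 7.30 in wild-type IAA and 7.59 and 7.79 in overexpressor IAA. Its arrays were as clearly apart, and it rose by 2.47 ± 0.15 (5.55-fold, limma adjusted p 0.000198). GH3.1 started near the bottom of the scale, at 0.97 and 1.56 in wild-type water and 1.19 and 1.24 in overexpressor water, and read 2.95, 2.49, 2.77 and 2.17 on the IAA arrays in the same order of lines. The groups did not overlap, and the rise was 1.36 ± 0.19 (2.56-fold, adjusted p 0.0201). This call, unlike the 2 before it, was lost without wild-type water replicate 1, either water array of the overexpression line or its IAA replicate 1.

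Named probe sets cover 5 of the 10 GH3 genes in the list used. The 3 above rose, and GH3.17 and GH3.9 did not pass the test. GH3.17, whose enzyme joins auxin to glutamate, read 2.19 to 3.04 in water and 3.33 to 4.03 after IAA, so its arrays were apart, yet the difference of 0.94 ± 0.22 had an adjusted p of 0.171. GH3.9 stayed between 1.13 and 1.40 on all 8 arrays, a difference of -0.04 ± 0.10. The median over the 5 genes was 1.36, against 0.0194 over all probe sets tested.

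Among the Aux/IAA repressors, IAA29 went from near the bottom of the scale to well above the array medians. It read 1.42 and 2.21 in wild-type water, 1.53 and 1.62 in overexpressor water, 5.21 and 6.79 in wild-type IAA and 6.35 and 6.64 in overexpressor IAA. The groups were 3 log2 units apart at their nearest arrays, and the 2 wild-type IAA arrays differed more from each other than any other pair. The rise was 4.55 ± 0.33 (23.5-fold, limma adjusted p 0.000549), and it was 4.09 ± 0.31 without the replicate 2 arrays. IAA30 encodes a shortened family member that lacks the degron by which the canonical repressors are recognised. It read 2.41 and 1.97 in wild-type water, 2.09 and 1.86 in overexpressor water, 3.82 and 4.47 in wild-type IAA and 4.07 and 4.23 in overexpressor IAA. These groups did not overlap either, and the gene rose by 2.06 ± 0.17 (4.18-fold, adjusted p 0.000953).

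Only 7 of the 29 Aux/IAA genes have a named probe set, and 5 of the 7 did not pass the test. IAA20 and IAA34, which also lack the degron, had arrays apart but small changes. IAA20 read 2.17 to 2.29 in water, 2.83 and 3.73 in wild-type IAA and 2.66 and 2.83 in overexpressor IAA, a difference of 0.77 ± 0.19 (adjusted p 0.218) that shrank to 0.50 without the replicate 2 arrays. IAA34 read 1.41 to 2.12 in water and 2.22 to 3.07 after IAA, a difference of 0.85 ± 0.19 (adjusted p 0.158). The wild-type replicate 2 array gave the highest IAA20 value, and the overexpressor replicate 2 array the highest IAA34 value. IAA18, a canonical repressor expressed at 5.30 to 6.01 on the 8 arrays, differed by 0.04 ± 0.17. IAA31 and IAA33 stayed between 0.80 and 1.24 on all of them. The median over the 7 genes was 0.77.

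Both measured LBD genes rose, and both are known to act in the founding of lateral roots downstream of auxin response factors. LBD29 read 1.42 and 1.58 in wild-type water and 1.43 and 1.43 in overexpressor water, against 3.63 and 5.32 in wild-type IAA and 4.84 and 4.38 in overexpressor IAA. The water arrays were tightly grouped and the IAA arrays widely spread, with no overlap, and the rise was 3.08 ± 0.31 (8.44-fold, limma adjusted p 0.00322). LBD16 read 1.69, 1.77, 1.79 and 1.62 in water and 3.19, 3.55, 3.50 and 3.67 after IAA, wild type first. Its IAA arrays spread far less than those of LBD29, and it rose by 1.76 ± 0.13 (3.38-fold, adjusted p 0.000549). HAT2, the only HD-Zip class II gene of 10 with a named probe set, encodes a transcription factor long known as auxin-inducible. It was the brightest of these regulators in water, at 6.04 and 6.48 in wild-type and 5.84 and 6.05 in overexpressor seedlings, and read 7.77 and 8.03, then 8.40 and 8.24, after IAA. It rose by 2.01 ± 0.18 (4.02-fold, adjusted p 0.00155). P1R3 completes the genes with a symbol that rose more than 1.9 log2 units: it read 1.32 to 1.73 in water and 3.01 to 3.99 after IAA, a rise of 1.97 ± 0.20 (adjusted p 0.00343).

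**Figure D2:**
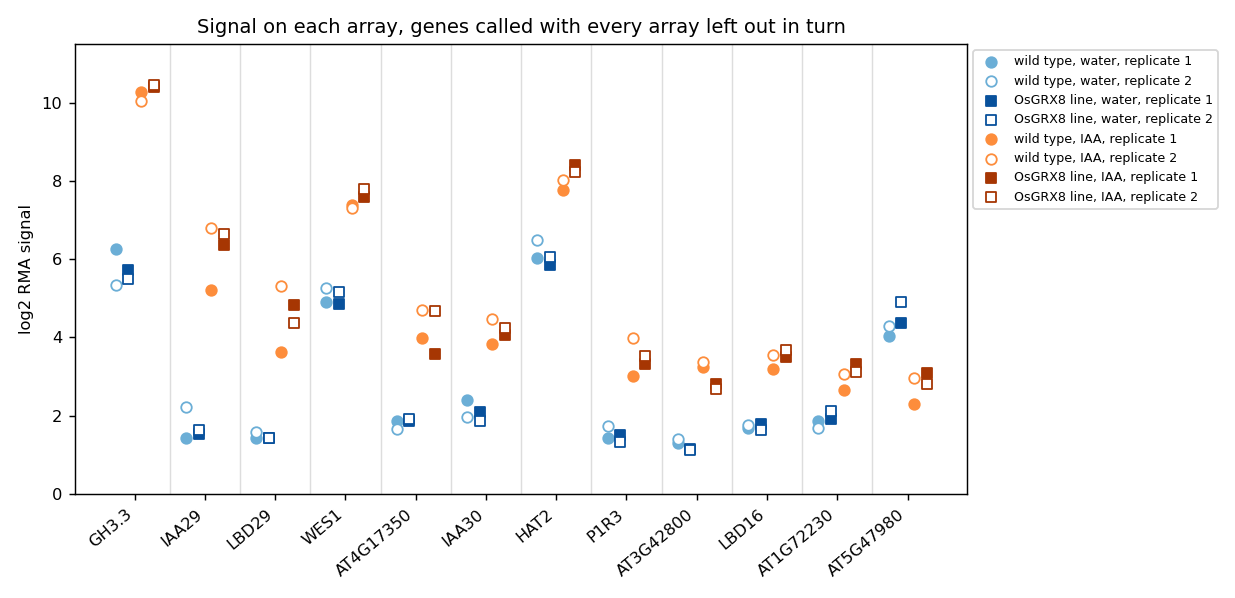
Signal (log2 RMA value, y axis) on each of the 8 arrays for the 12 genes that stayed past the test whichever single array was left out. Water arrays are blue and IAA arrays orange, circles are wild type and squares the OsGRX8 line; 11 genes lie higher and AT5G47980 lower after IAA, with no overlap.

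The genes upstream of these targets could be described only in part. No auxin receptor, auxin response factor or SAUR gene has a named probe set in the annotation used here. WAG2, a protein kinase that acts on auxin efflux carriers, was the only one of 22 transport genes measured. It read 1.02 to 1.07 in water and 1.25 to 1.58 after IAA, so that its arrays were apart, but the difference of 0.37 ± 0.11 did not pass (adjusted p 0.291). Of the genes for auxin synthesis and inactivation, 4 of 21 were measured and 0 of 4 passed, also at an unadjusted p under 0.05. The flavin monooxygenase genes YUC2, YUC4 and YUC6, which catalyse the last step of IAA synthesis, differed by -0.04, -0.01 and -0.23, and UGT84B1, which glucosylates IAA, by -0.06. All 4 signals lay between 0.78 and 2.72 on every array, which is below the array medians.

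Other hormone pathways gave no call among their few measured members. EIN3, the transcription factor of ethylene signalling, differed by 0.24 ± 0.11 (adjusted p 0.473) and was the only one of 23 ethylene genes measured. The cytokinin response regulators RR16 and ARR15 differed by -0.15 and -0.07. The lateral root regulators PUCHI and CR4 differed by 0.42 ± 0.16 and 0.37 ± 0.18, with adjusted p-values of 0.422 and 0.516. Without the replicate 2 arrays PUCHI differed by 0.40 and CR4 by 0.05. PDF1.2, a defensin gene of jasmonate and ethylene responses, differed by 0.03 ± 0.25. No cyclin, gibberellin, brassinosteroid, jasmonate or heat shock gene of the lists used has a named probe set.

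Wall-loosening genes are classical targets of auxin-driven growth. Of 69 expansin and XTH genes 29 were measured and 0 of 29 passed the test over the 8 arrays, with 17 above 0, 12 below and a median of 0.06. At an unadjusted p under 0.05 there were 7 of the 29, where 10.6% of all probe sets had such a p. The expansin gene EXPA8 read 1.73, 1.97, 1.59 and 1.57 in water and 2.71, 2.19, 3.95 and 2.49 after IAA, wild type first. Its arrays were apart, but the IAA arrays spread widely, and the difference was 1.12 ± 0.33 (adjusted p 0.291). XTH32, a xyloglucan-modifying enzyme gene, read 4.74 to 5.84 in water and 3.98 to 4.55 after IAA, a difference of -1.02 ± 0.24 (adjusted p 0.187). EXPA9 turned on the replicate number: it read 3.63 to 3.74 in water, 3.26 and 3.49 on the IAA replicate 1 arrays, and 1.66 and 1.93 on the replicate 2 arrays. EXPA4 split further. It read 4.74, 4.70, 4.82 and 5.34 in water, 5.80 and 6.0 on the IAA replicate 1 arrays, and 3.02 and 4.81 on the replicate 2 arrays. Over 8 arrays EXPA4 therefore differed by 0.01 ± 0.53, whereas without the replicate 2 arrays it was higher by 1.0 ± 0.16 and passed (limma adjusted p 0.0432).

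The other lists held 2 calls. COR15B, which encodes a chloroplast protein of cold acclimation, read 7.14, 7.19, 6.90 and 6.87 in water and 7.95, 7.90, 7.58 and 7.65 after IAA. The arrays of each line were close together and apart between treatments, and it rose by 0.75 ± 0.10 (1.68-fold, adjusted p 0.0144). The call was lost in the fit on all 16 arrays (adjusted p up to 0.798 over the alternatives), with the same change. The related COR15A differed by 0.42 ± 0.13 (adjusted p 0.319) and COR47 by 0.02. AT1G59740, annotated as NPF4.3 of the NRT1/PTR transporter family, read 4.03 and 3.90 in wild-type water, 4.43 and 4.71 in overexpressor water, 5.09 and 5.71 in wild-type IAA and 5.57 and 5.70 in overexpressor IAA. It rose by 1.25 ± 0.16 (adjusted p 0.0146), and of 11 measured family members it alone passed, with a median of 0.01 over the 11. Both calls were lost without any of several single arrays, the 2 wild-type water arrays among them, with adjusted p-values up to 0.0961 and 0.0915. The call for AT1G59740 was also lost on all 16 arrays, and its adjusted p reached 0.515 on those arrays less both IAA replicate 2 arrays.

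Families with more members on the array gave 0 calls in either direction among the members listed here. This held for 13 glutathione S-transferases (median -0.08), 5 glutaredoxins (0.06), 51 UDP-glycosyltransferases (-0.07), 7 annotated peroxidases (-0.22), 17 CLE and RALF-like peptide genes (0.12), 16 SWEET sugar transporters (-0.10) and 23 TBL genes (0.03). Members were found by symbol or synonym. A called gene with a locus code only can therefore belong to one of these families without being counted. At an unadjusted p under 0.05 limma gave 29 of these 132 genes, and 10.6% of all probe sets. A few of their members had arrays apart without passing. GSTU20 read 6.01 to 7.01 in water and 5.11 to 5.98 after IAA, a difference of -0.95 ± 0.25 (adjusted p 0.231). CLE44, which encodes a peptide of vascular stem cell maintenance, read 1.74 to 2.05 in water and 2.26 to 2.71 after IAA, a difference of 0.61 ± 0.14 (adjusted p 0.161). CLE41, which encodes the same peptide, differed by -0.29 ± 0.11.

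**Figure D3:**
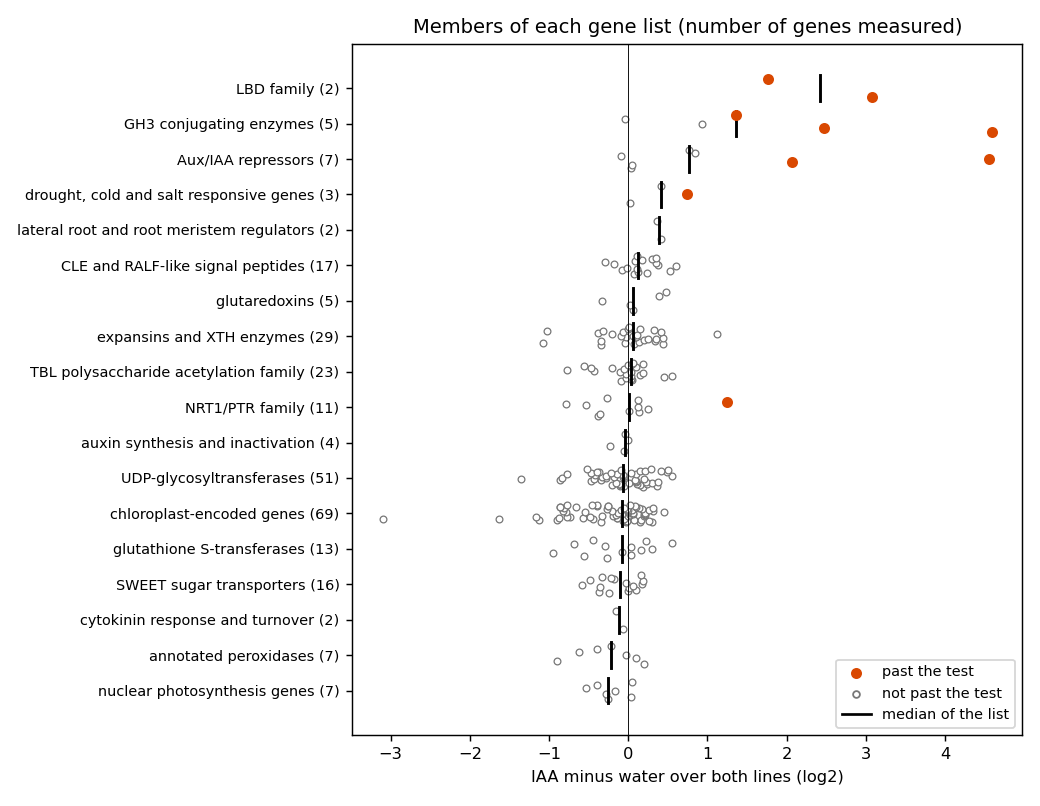
Difference between IAA and water over both lines (log2, x axis) for each measured member of 18 gene lists (y axis, number of genes measured in parentheses). Filled orange points passed the test, and vertical bars are list medians; calls lie in the LBD, GH3, Aux/IAA, cold and NRT1/PTR lists, and psaJ is the point near -3.1.

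Chloroplast-encoded transcripts gave no call, and several were low on the IAA replicate 2 arrays alone. Of 69 measured genes 0 passed (4 at an unadjusted p under 0.05, against 10.6% of all probe sets), 26 lay above and 43 below 0, and the median was -0.08, or 0.05 without the replicate 2 arrays. psaJ, a small subunit of photosystem I, read 6.23 and 9.04 in wild-type water and 7.05 and 6.39 in overexpressor water. After IAA it read 5.35 and 6.09 on the replicate 1 arrays but 3.25 and 1.63 on the replicate 2 arrays. The difference of -3.10 ± 0.96 was the lowest of any probe set, yet with this spread its adjusted p was 0.323, and it was -1.46 without the replicate 2 arrays. psbE and psbF, both subunits of cytochrome b559 in photosystem II, differed by -1.63 ± 0.77 and -1.13 ± 0.56. Without the replicate 2 arrays the values were -0.06 and -0.03. Both IAA replicate 2 arrays lay below all the other 6 arrays in 20 of the 69 genes (29%) and above them in 0, against 11.1% and 11.8% of all probe sets. The 7 measured nuclear photosynthesis genes had a median of -0.25 with 0 calls, and 3 of the 7 had both replicate 2 arrays lowest. The high actin 3′ excess stood on the same 2 arrays, and its part in these values was not tested. Among the 35 called genes, 1 had both replicate 2 arrays lowest and 10 had them highest. These counts cannot be set against the shares above, because the IAA arrays of every called gene lay apart from water. A rise could only have the replicate 2 arrays highest, and a fall only lowest.

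Most of the called genes carry a locus code only. AT1G64405 rose by 2.57 ± 0.38 (5.95-fold, limma adjusted p 0.0251), from 1.05 to 1.27 in water to 3.05 and 5.05 in wild-type IAA and 3.10 and 3.75 in overexpressor IAA. The wild-type replicate 2 array was far above the other 3, and without both replicate 2 arrays the rise was 1.91. AT4G17350 rose by 2.41 ± 0.25 (adjusted p 0.00343), from 1.65 to 1.91 in water to 3.99, 4.70, 3.58 and 4.67 after IAA. AT3G42800 had the smallest error of the large increases: it read 1.30, 1.41, 1.14 and 1.11 in water and 3.24, 3.37, 2.80 and 2.69 after IAA, a rise of 1.78 ± 0.11 (adjusted p 0.000286). AT5G50130, AT3G19200 and AT5G62280 rose by 1.76, 1.74 and 1.64, with adjusted p-values of 0.0431, 0.0170 and 0.0263. Smaller increases between 1.27 and 1.48 were those of AT5G50335, AT3G60650, AT3G50340, AT3G07010 and AT5G51670. The remaining called genes were named after their values had been seen. They are AT5G41400, AT1G28400, AT1G72230, AT5G48900, AT5G22860 and AT3G28420, and their rises ran from 1.22 down to 0.86.

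The 7 genes that fell all carry a locus code. AT5G47980 read 4.03 and 4.28 in wild-type water, 4.37 and 4.90 in overexpressor water, 2.29 and 2.97 in wild-type IAA and 3.09 and 2.81 in overexpressor IAA. It fell by 1.60 ± 0.18 (3.04-fold lower, adjusted p 0.00666), and the highest IAA array lay about 1 unit below the lowest water array. AT5G17820 fell by 1.27 ± 0.21, AT3G52480 by 1.24 ± 0.16 and AT4G30170 by 1.20 ± 0.17, with adjusted p-values of 0.0393, 0.0148 and 0.0201. AT4G30460, AT1G09390 and AT3G01260 fell by 0.95, 0.79 and 0.70. The nearest decreases outside the threshold were AT1G27030 at -0.74 (adjusted p 0.0511), AT5G53110 at -0.89 (0.0526) and AT4G11290 at -0.94 (0.0675). Falls were thus fewer and smaller than rises, and without the replicate 2 arrays 25 probe sets fell in place of 17.

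Leaving out single arrays separated these calls further. GH3.3, WES1, IAA29, IAA30, LBD29, LBD16, HAT2, P1R3, AT4G17350, AT3G42800, AT1G72230 and AT5G47980 passed whichever 1 of the 8 arrays was left out, and also under every planned change of the processing in which they could be tested. The other 23 genes lost the call without at least 1 array. Their direction could not change, because their IAA and water arrays did not overlap. Without wild-type water replicate 1 all 23 were lost, without either water array of the overexpression line 20 and 22, and without wild-type IAA replicate 2 none. In the fit on all 16 arrays the calls of AT5G50335, AT5G22860, AT4G30460, AT1G59740 and COR15B were lost.

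Probe sets without a gene name made up 60 of the 97 calls, 51 higher and 9 lower. Their median rise was 1.52 and their median fall -0.93, and 18 of them rose at least 4-fold. The largest rise of all probe sets was among them: a probe set read 3.80, 2.65, 3.38 and 2.83 in water and 8.49, 7.01, 8.51 and 8.09 after IAA, a rise of 4.86 ± 0.36 (29.0-fold, limma adjusted p 0.000549). The suffix of its name marks probes that can detect more than 1 transcript. The next largest among the unnamed probe sets read 2.71 to 3.40 in water and 6.47 to 7.17 after IAA, a rise of 3.86 ± 0.21 (adjusted p 0.000132). Without the IAA replicate 2 arrays 49 of the 60 remained past the test.

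The check without the IAA replicate 2 arrays could not reverse any of the 97 calls, because none had overlapping IAA and water arrays. It called 120 probe sets (0.528%), 95 higher and 25 lower, and 77 were called in both fits, which is 79.4% of the 97 and 64.2% of the 120. Of the 35 genes, 28 remained past the test. All 10 genes with a symbol were among them: GH3.3, WES1 and GH3.1, IAA29 and IAA30, LBD29 and LBD16, HAT2, P1R3 and COR15B. The 7 that no longer passed kept changes between -1.14 and 1.68. They were AT5G62280 (adjusted p 0.0591), AT4G30170 (0.0618), AT5G48900 (0.0671), AT5G17820 (0.0783), AT3G01260 (0.0789), AT5G50130 (0.0918) and AT5G22860 (0.106). For the genes that remained, the rise was smaller in most and larger in some: AT1G64405 moved from 2.57 to 1.91 and IAA29 from 4.55 to 4.09, while GH3.1 moved from 1.36 to 1.62 and AT3G50340 from 1.39 to 1.67.

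**Figure D4:**
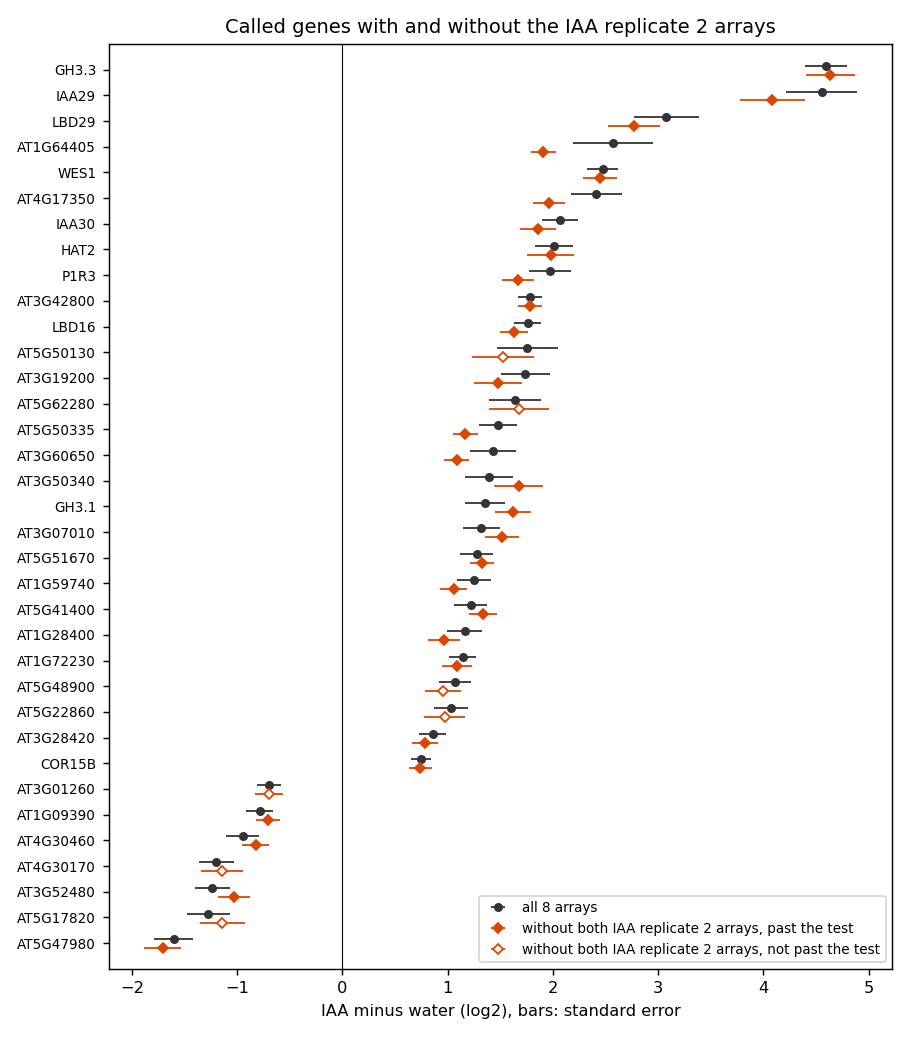
Difference between IAA and water (log2, x axis) with its standard error for the 35 called genes, over all 8 arrays (dark circles) and without both IAA replicate 2 arrays (orange diamonds, open where the gene no longer passed). Directions could not change, because the IAA and water arrays of each called gene did not overlap, and 7 diamonds are open.

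Another 20 genes passed only in the fit without the replicate 2 arrays and were named after their values were seen. AT3G26760 read 1.96 to 2.44 in water, 4.22 and 4.70 on the IAA replicate 1 arrays and 2.66 and 3.00 on the replicate 2 arrays. Its rise was 2.24 ± 0.18 (adjusted p 0.00199) in that fit and 1.43 ± 0.41 (adjusted p 0.285) over 8 arrays. GH9C2, which encodes an endoglucanase of glycoside hydrolase family 9, rose by 1.26 ± 0.17 there (adjusted p 0.0213), and 1.0 ± 0.25 over 8 arrays did not pass. BAT1, an acyltransferase that acts on brassinosteroids, rose by 1.18 ± 0.17 there (adjusted p 0.0292), and its 1.25 ± 0.23 over 8 arrays had an adjusted p of 0.0782. BCAT4, the enzyme that starts the chain elongation of methionine in glucosinolate synthesis, fell by 1.03 ± 0.15 (adjusted p 0.0346), against -0.73 ± 0.19 over 8 arrays. It read 6.44 to 6.84 in water, 5.73 and 5.48 on the replicate 1 arrays and 6.24 and 6.13 on the replicate 2 arrays, so only the first pair stood well below water.

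The lines were compared by the difference between their responses, tested on the same 8 arrays. No probe set passed (0 of 22746, 0% called, limma adjusted p 0.9999 for each of the 6 genes with the smallest p of each direction), with 478 at an unadjusted p under 0.05, or 2.1% of those tested. The 95% interval of this difference had a median half-width of 0.674, so that only large differences between the lines could have been called. For GH3.3 the IAA minus water value was 4.83 in the overexpression line and 4.36 in the wild type, a difference of 0.47 (95% interval -0.45 to 1.38). For IAA29 the values were 4.92 and 4.19, with a difference of 0.73 (-0.81 to 2.28). HAT2 had 2.37 in the overexpression line and 1.64 in the wild type, a difference of 0.73 with an interval from 0.06 to 1.40 before any adjustment. LBD29 had 3.18 and 2.98, with an interval of the difference from -1.32 to 1.72. The smallest unadjusted p belonged to CHI, annotated as a chitinase gene, which read 2.18 to 2.58 on the 4 wild-type arrays, 2.95 and 2.92 in overexpressor water and 1.59 and 1.93 in overexpressor IAA. The difference between the lines was -1.47 ± 0.24 and did not pass after adjustment.

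Tested within each line on these 8 arrays, 6 probe sets passed for wild-type seedlings (0.0264%) and 29 for the overexpressor (0.127%), all of them higher after IAA. This difference in counts is no test of a difference between the lines. The wild-type count moved between 1 and 2985 when single arrays were left out, and 0 passed in the overexpression line without any 1 of its arrays. The lines share no array, so each gives a separate value. Across all 22746 probe sets, which are not independent replicates, the responses of the lines had a Pearson r of 0.558. The 25 genes with the largest rises in the wild type were all above 0 in the overexpression line, with a median of 1.88 there and 1.63 in the wild type. Of the 25 largest rises in the overexpression line, 24 were above 0 in the wild type, where the median was 1.48. For the 25 largest falls, 25 and 24 kept their sign. The IAA replicate 2 arrays of both lines had the high actin 3′ excess, and same-numbered IAA arrays shared part of their deviation (correlation 0.363). The part of these arrays in the agreement between the lines was not tested, and no values without them are given here. Over all genes, 57.5% were above 0 for wild-type seedlings and 51.2% for the overexpressor. The median over the called increases was 1.57 for wild-type seedlings and 1.64 for the overexpressor.

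**Figure D5:**
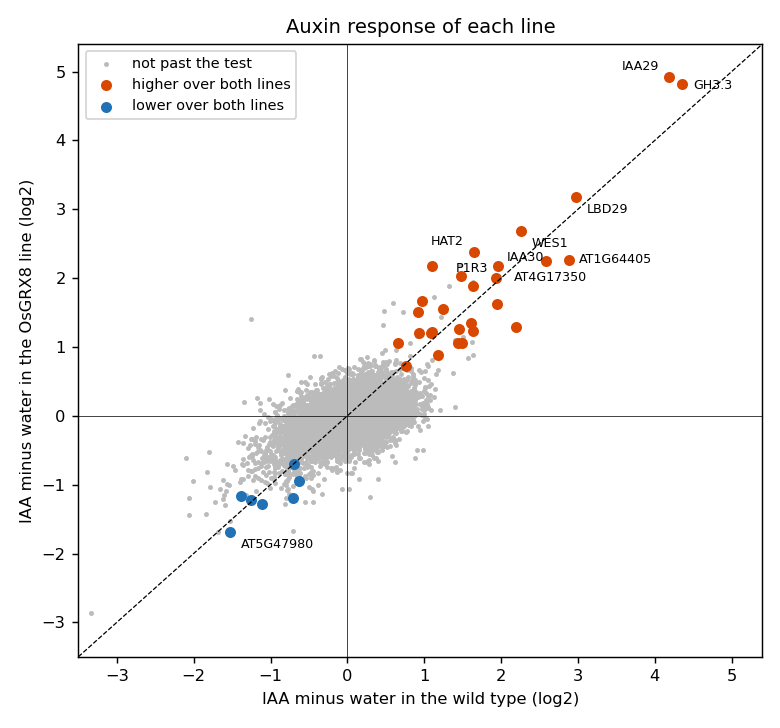
Difference between IAA and water in the wild type (log2, x axis) and in the OsGRX8 line (log2, y axis) for each probe set of a single gene; orange and blue points passed the test over both lines. All 35 lie in the same direction in both lines, which follows from their IAA and water arrays not overlapping. The dashed line marks equal response.

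The levels of the called genes on the other arrays are given as a description. They were chosen for their difference from water, so no count of them against the other treatments is given. GH3.3 read 7.96 to 8.69 on the NaCl arrays and 5.52 to 7.59 on the methyl viologen arrays, so that the NaCl levels lay between those of water and IAA, while the methyl viologen range began within the water range of 5.35 to 6.25. IAA29 read 5.16 to 6.01 on the NaCl arrays, which overlaps its IAA range of 5.21 to 6.79, and 1.13 to 1.47 on the methyl viologen arrays. HAT2 was higher after NaCl, at 8.62 to 8.90, than after IAA, at 7.77 to 8.40. By contrast GH3.1 read 1.22 to 1.41 and AT1G64405 read 1.15 to 1.61 on the NaCl arrays, near their water levels. The decreases did not share a direction after NaCl. AT5G47980 was lower after NaCl, at 1.81 to 2.45, than on all but 1 of the IAA arrays. AT3G52480 read 4.26 to 4.68 after NaCl, above its water range of 3.71 to 4.17.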

How the data were processed

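Total RNA (500 ng per labelling) of whole seedlings was hybridised to Affymetrix ATH1 arrays. The authors deposited 1 log2 value per probe set and array. These come from RMA, per the submitters' processing notes, which name no version; no program or probe definition is given in the sources used here. Bacterial transcripts added at 1.5, 5, 25 and 100 pM had slopes of 0.779 to 0.996 against the log2 of their concentration. Quantile normalization within RMA sets the arrays to 1 distribution, so a shift common to all genes cannot be seen.

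Each of 22746 probe sets (22810 less 64 Affymetrix controls) was fitted with limma 3.58.1 in R 4.3.3 (line plus agent, 8 arrays, 5 residual and 4.08 prior degrees of freedom). The difference between the lines and the response in each line came from the 4 group means on the same arrays. All tests were two-sided. P-values were adjusted by Benjamini-Hochberg over all probe sets, with a threshold of 0.05. Errors are standard errors; the number of arrays limits the precision. No filter on dim signals was used, and detection calls were not used here.

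Genes were named from the platform annotation: 13513 probe sets had 1 gene, 503 several and 8730 none, and 13436 matched the RefSeq gene table of TAIR10.1. The brightest probe set stood for a gene. The text names, from a rule, the 20 largest increases and the 10 decreases with the smallest p, 3 genes of each direction for the difference between the lines, and up to 4 members of each of 30 lists, or all members past the test. Not every gene taken by the rule is named. Outside the rule, the text also names the list members psbE, psbF, GH3.9, GH3.17, IAA18, IAA20, IAA31, IAA33, IAA34, COR15A, COR47 and EXPA4. The arrays compared, the lists and the rule were chosen with earlier results of these data known, and 8 of the lists were written after the values had been seen. The fit was tested on simulated data. Sequences were not used here.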

Additional observations from a re-analysis of the deposited data

Results flagged for a closer look

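The 70 combinations of a called gene with the 4 water or the 4 IAA arrays were examined for an array far from the other 3, and 2 stood out, where chance alone marks about 1 group in 20. In water, AT5G51670 read 2.06 on wild-type replicate 2 and 1.86 to 1.89 on the other 3 arrays. LBD29 read 1.58 on the same array and 1.42 to 1.43 on the others. Both gaps are small beside the responses of these genes, whose IAA arrays read at least 2.66 and 3.63.

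Outside the tested probe sets, the 3′ excess of the actin control was above the highest water value of 1.85 on 3 of the 4 IAA arrays. It was 2.57 on wild-type replicate 1, 6.10 on wild-type replicate 2 and 4.43 on replicate 2 of the overexpression line. A spiked bacterial thr transcript also had a larger 3′ excess on the IAA arrays, 3.01 to 3.66 against 1.94 to 2.84 in water. With this actin value as a covariate 93 probe sets were called, 65 of them among the 97.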

How the results depend on the processing

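Over both lines the 97 calls became 63 with the 11373 brighter probe sets only, which tests fewer features, 62 with 4 group means in place of line plus agent, and 208 with array weights (71.2% higher, against 82.5%), where wild-type IAA replicate 2 had the lowest weight, 0.215. The cause of the last count was not tested. Leaving out 1 array gave 41 to 145 calls, lowest without wild-type water replicate 1 or overexpressor water replicate 2 and highest without wild-type IAA replicate 2. Other counts stayed within 1.5 times: 141 on all 16 arrays (86 shared), 120 without both IAA replicate 2 arrays, 103 with both changes, 87 after repeated quantile normalization, 100 after median centring, 111 with an intensity trend, 93 with the actin covariate, 92 without suffixed probe sets and 74 at 2-fold. In the wild type the 6 calls became 47 on 16 arrays and 33 without the replicate 2 arrays, and 1 to 2985 with 1 array left out. The highest count rests on wild-type IAA replicate 2 alone, assumed to vary like the other groups. In the fits of each line and between the lines without both IAA replicate 2 arrays, each line kept 1 IAA array. The replicate spread in those fits came from the water arrays alone, so their counts are no check on the spread after IAA. In the overexpression line the 29 calls became 49 and 64, and 0 to 0 with 1 array left out. The difference between the lines gave 0 calls under every setting tried; at an unadjusted p under 0.05 it had 647 probe sets on 16 arrays and 1726 without the replicate 2 arrays. Replicate numbers paired most samples only weakly: deviations of same-numbered arrays correlated at -0.0797 to 0.138 in all pairs of groups but 1. Between the 2 IAA groups the correlation was 0.363, so their same-numbered arrays shared part of their deviation. With the replicate number within each line as a block, each block paired an IAA array with a water array of that line. This fit called 114 probe sets over both lines (84 shared), 10 for wild-type seedlings, 30 for the overexpressor and 0 for the difference. AT5G17820, AT3G50340, AT3G01260 and AT1G09390 were no longer called in it. Of the values for the called genes under these settings 534 kept their call, 186 lost it and 0 reversed. A reversal was not possible where arrays were only left out. Averaging a gene's probe sets would leave the signals of the called genes unchanged, since every called gene has 1 probe set. Its effect on their adjusted p-values, which depend on all features tested, is not given here.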
